A study of Mus musculus with 8 samples.

Results

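Skeletal muscle holds multinucleate fibres that contract and a dense bed of capillaries whose inner wall is a single layer of endothelial cells. The comparison described here sets the 3 libraries of muscle endothelial cells against the 3 libraries of single muscle fibres, 6 of the 8 libraries of the series. Both populations came from the mouse, and the libraries were made from total RNA with random primers, and ribosomal cDNA was cut away afterwards. The endothelial cells were sorted by flow cytometry from the muscles of the hindlimb, about 100000 cells for each library. Each fibre library was made from 100 fibres of the extensor digitorum longus, a fast muscle of the lower leg that rested for 3 h and were then picked out by hand. The labels do not name the surface markers of the sort, give no treatment, strain, genotype or age for either group, and do not say whether the libraries of a group came from separate animals, so a p-value here speaks for the spread among the libraries at hand, part or all of which can be technical. Source muscle, dissociation and picking differ together with the population and cannot be told apart from it. The values are FPKM, fragments counted relative to transcript length and to the size of the library, so they can be compared between genes. Of 36048 genes in the deposited table, 14472 reached at least 1 FPKM in at least 2 of these 6 libraries and were tested.

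A fibre of the extensor digitorum longus is built for fast contraction. Its thin filaments of actin, tropomyosin and troponin slide along thick filaments of myosin, calcium released from the sarcoplasmic reticulum switches the filaments on, and a pump returns the calcium. Glycolysis and phosphocreatine supply much of its ATP. Endothelial cells hold together through cadherin and claudin junctions, pass water, gases and lipids to the fibres, set vessel tone through nitric oxide and endothelin, and respond through receptor kinases to the VEGF and angiopoietin proteins that surrounding cells release.

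Differences are given as fibres minus endothelial cells on the scale of log2(FPKM + 1), with the standard error and the Benjamini-Hochberg adjusted p-value of a limma fit over all 14472 genes. A positive value means a higher level in fibres, a gene is called when its adjusted p is under 0.05, and a difference on this scale understates the change of a gene whose level is near or below 1 FPKM. With the values as deposited, 1815 genes were higher in fibres (12.5% of those tested) and 8961 were higher in endothelial cells (61.9%), 74.5% in all. The shares of 12.5% and 61.9% are the background for the list counts below. The median difference of all tested genes was -1.02, so an average gene sat lower in the fibre libraries. That imbalance depended on how the libraries were scaled. The median was -0.64 when each library was scaled to a sum that leaves out the 50 genes highest in each group (abundance-trimmed scaling), -0.35 under upper-quartile scaling and -0.24 under median-of-ratios scaling. The number of genes higher in fibres was then 2698, 3531 and 3885 (18.6%, 24.4% and 26.8%), and the number higher in endothelial cells 6959, 5723 and 5256 (48.1%, 39.5% and 36.3%). Under median-of-ratios scaling 306 genes were called on the side opposite to the deposited values. Each of the other 3 scalings lowered every endothelial library and raised every fibre library, so it could only move a gene toward fibres. The 1815 fibre calls were all kept, which that direction largely gave in advance and which does not test them. Of the 8961 endothelial calls, 5256 were kept under the other 3 scalings (36.3% of the tested genes). Differences of at least 3 log2 units on the fibre side were likewise called under all 4 scalings, 328 of 328. On the endothelial side 1061 of 1070 were called under all 4, so large differences there were less affected. These large differences are 2.27% and 7.39% of the tested genes. Unless a sentence says otherwise, a named gene that was called was called on the same side under all 4 scalings.

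**Figure D1:**
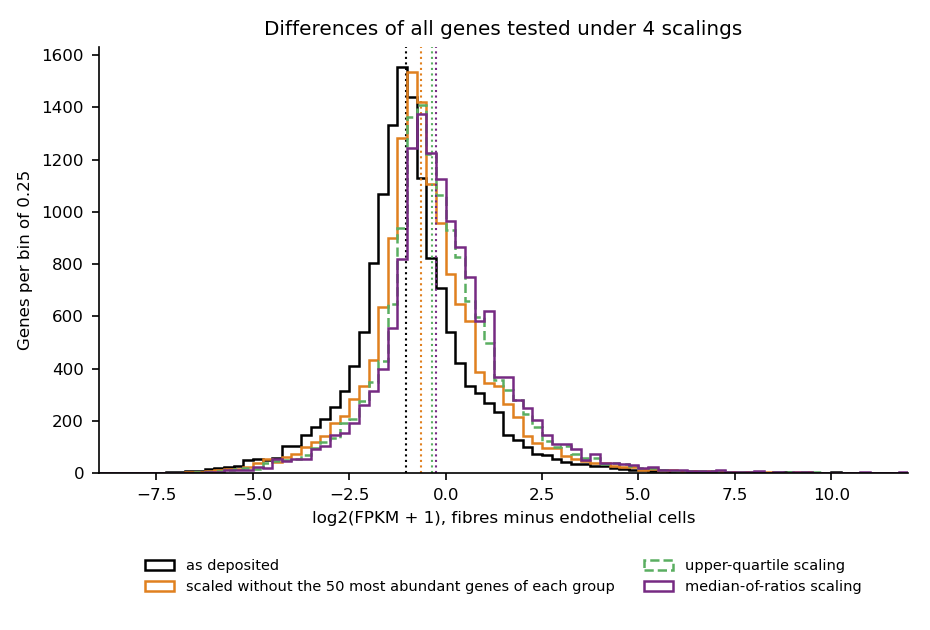
Number of tested genes (vertical axis, bins of 0.25) by their difference between fibres and endothelial cells in log2(FPKM + 1) (horizontal axis), for the deposited values and 3 other scalings, with dotted lines at the medians. The median moves from -1.02 as deposited to -0.24 under median-of-ratios scaling and stays negative throughout. A gene with a difference near the median can lose its call with the scaling, and 306 genes were called on the opposite side under median-of-ratios scaling.

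Over all kinds of genes, nuclear protein-coding genes held 7.34% to 9.27% of the FPKM of a library, and the 10 most abundant genes, among them mitochondrial ribosomal and other structural RNAs, held 70.9% to 75.1% in endothelial and 76.2% to 78.9% in fibre libraries. Within the coding genes the populations differed more. Between 8931 and 9692 of them reached 1 FPKM in an endothelial library and between 5836 and 5932 in a fibre library. Over all kinds of genes these numbers were 12640 to 14314 and 7960 to 8116. Of the FPKM of nuclear protein-coding genes, 50% was held by 621 to 769 genes in endothelial cells and by 33 to 42 genes in fibres, and the 14 most abundant coding genes of a library held 7.54% to 7.86% and 39.0% to 40.8%. The fibre libraries were the deeper ones, with 525.5 to 580.8 Mb of aligned bases against 297.8 to 367.8 Mb as inferred from the deposited transcript coverage, so 1 fragment that falls on 1 kb of transcript adds 0.172 to 0.190 FPKM in fibres and 0.272 to 0.336 FPKM in endothelial cells. Levels across the tested genes were correlated with a Spearman coefficient of 0.860 to 0.905 among endothelial libraries, 0.917 to 0.922 among fibre libraries and 0.357 to 0.376 between the groups, as a description over genes, which are not independent. Endothelial replicate 2 stood apart from replicates 1 and 3 in several groups of genes that are named where they occur. The labels state that the RNA integrity number of 8 was met by all samples but 1, which they do not name. The labels state that the RNA integrity number of 8 was met by all samples but 1, which they do not name.

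**Figure D2:**
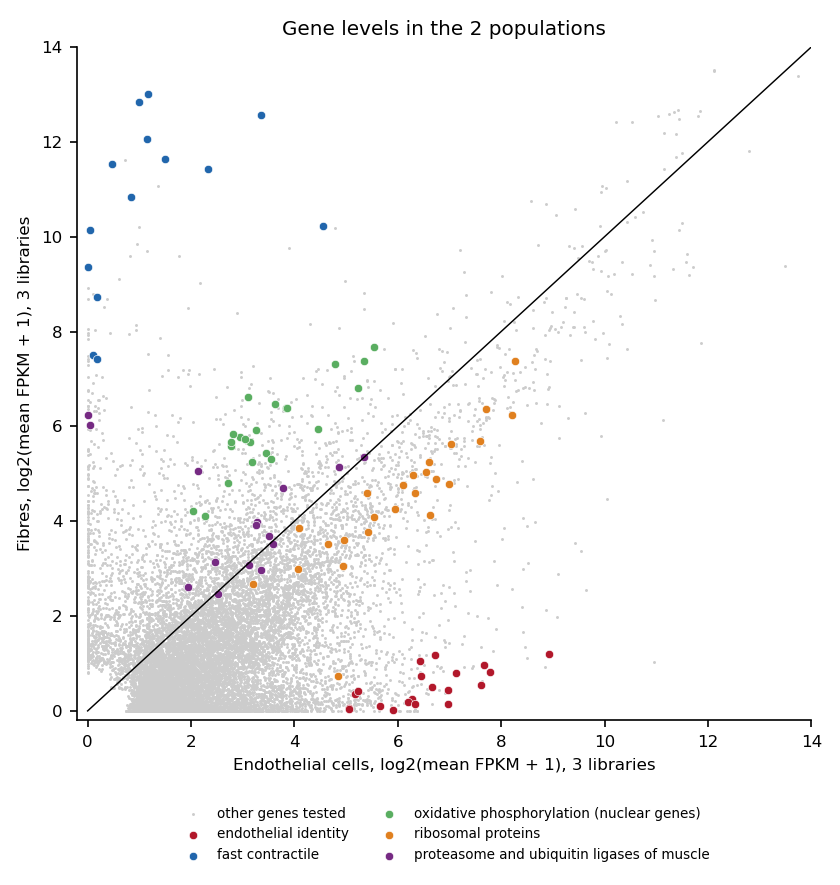
Mean level in 3 fibre libraries (vertical axis) against the mean in 3 endothelial libraries (horizontal axis), both as log2(mean FPKM + 1), for all 14472 tested genes in grey and 5 gene lists in colour, with a line at equal levels. Fast contractile genes lie far above the line and endothelial identity genes far below it, while ribosomal protein genes lie below it, with 21 of 24 called lower in fibres as deposited but 12, 4 and 2 under the abundance-trimmed, upper-quartile and median-of-ratios scalings.

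Among nuclear protein-coding genes, those of the fast contractile apparatus led the fibre libraries. All 14 members of the fast contractile list were higher in fibres, with a median difference of 9.78 against -1.02 for all genes. Myh4, which encodes the fastest type of myosin heavy chain in mouse limb muscle (chromosome 11, bases 67237812 to 67260447 of mm10), stood at 0.461, 2.89 and 0.392 FPKM in endothelial replicates 1, 2 and 3 and at 8132, 8700.1 and 7738 FPKM in fibre replicates 1, 2 and 3. The groups did not overlap, and the difference was 12.00 ± 0.41, adjusted p = 1.51e-06. Tnnt3, the fast troponin T that ties troponin to tropomyosin, stood at 1.33, 0 and 1.67 against 6829, 7359.6 and 7841 FPKM (difference 11.96 ± 0.38, adjusted p = 1.21e-06). Acta1, the actin of skeletal thin filaments (chromosome 8, bases 123891758 to 123894775), stood at 11.7, 5.06 and 10.9 against 5843, 5609 and 6771 FPKM (difference 9.29 ± 0.31, adjusted p = 1.50e-06). All 3 genes were among the most abundant coding genes in every fibre library and under 12 FPKM in every endothelial library. Pvalb, the calcium buffer parvalbumin of fast fibres, stood at 1.33, 0.906 and 1.4 against 3992, 4271 and 4546 FPKM (difference 10.92 ± 0.16, adjusted p = 4.25e-07).

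The 2 other fast myosin heavy chains followed the same side at lower levels. Myh1, the heavy chain of type 2X fibres, stood at 0, 0.255 and 0.129 against 362, 391 and 518 FPKM, and Myh2, that of type 2A fibres, at 0.0977, 0.147 and 0 against 166, 195 and 181 FPKM. Both were listed at 0 in an endothelial library. Among the fibre libraries the order Myh4, Myh1, Myh2 held in each one. The remaining fast genes among the 14 most abundant genes of the fibre side were Tnni2 and Tnnc2 (the inhibitory and calcium-binding subunits of fast troponin), Mylpf and Myl1 (the regulatory and essential light chains of fast myosin), Tpm1 (a tropomyosin) and Actn3 (the alpha-actinin of fast Z discs). Their differences ran from 5.67 for Tpm1 to 11.15 for Tnnc2, and no library of one group overlapped the other.

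Genes of slow fibres were largely absent from both groups. Of the 10 members of the slow contractile list, 7 did not pass the filter on low values. They include Myh7, the slow myosin heavy chain, which stood at 0.114, 0.0322 and 0.0933 against 0.578, 0.0704 and 0.0799 FPKM, and Myl2 and Myl3, the slow light chains, which were listed at 0 in all 6 libraries. Among the 3 tested members, Mybpc1, the slow-type myosin-binding protein C, went to the fibre side with 0, 0 and 0 against 478, 485 and 477 FPKM (difference 8.91 ± 0.12, adjusted p = 3.20e-07). Fibres of fast muscles are known to express this gene too. The other 2, Tpm3 and Atp2a2, which also have forms outside muscle, were higher in endothelial cells, with 23.4, 22.1 and 22.3 against 1.06, 1.32 and 1.07 FPKM for the calcium pump gene Atp2a2 (difference -3.46 ± 0.12, adjusted p = 1.58e-06).

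Of the 18 genes of the Z disc and titin system, 17 were tested and 17 were higher in fibres, with a median difference of 5.64. Titin (Ttn), the spring that spans the sarcomere from Z disc to M line, stood at 0.242, 0.368 and 0.283 against 419, 536 and 286 FPKM (difference 8.27 ± 0.24, adjusted p = 9.80e-07). Nebulin (Neb), the ruler of the thin filament, stood at 0.0516, 0.122 and 0.0714 against 438, 536 and 356 FPKM (difference 8.66 ± 0.18, adjusted p = 5.53e-07). Both long transcripts were higher in fibre replicate 2 than in fibre replicate 3, with replicate 1 between them, a spread that is small beside the distance to the endothelial libraries. Tcap, the telethonin that caps titin, stood at 0, 1.57 and 0 against 573, 501 and 569 FPKM, and Myoz1, a calcineurin-binding protein of fast Z discs, at 0.241, 0 and 0.511 against 341, 360.3 and 389 FPKM. The untested member was Csrp3, with 0, 0.248 and 0 against 0.649, 0.228 and 0 FPKM, a LIM protein best known from heart and slow fibres.

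All 15 genes of excitation-contraction coupling were higher in fibres, with a median difference of 5.61. Atp2a1, the fast calcium pump of the sarcoplasmic reticulum, stood at 1.34, 0.479 and 0.135 against 3208, 2951 and 3251 FPKM (difference 10.96 ± 0.27, adjusted p = 6.65e-07). Casq1, which buffers calcium inside the reticulum, stood at 0.999, 0.408 and 1.43 against 822, 999.6 and 932 FPKM (difference 8.91 ± 0.23, adjusted p = 6.85e-07). Ryr1, the release channel, stood at 0.044, 0.0104 and 0.0469 against 91.4, 101 and 78.9 FPKM (difference 6.46 ± 0.14, adjusted p = 5.53e-07). Endothelial values of all 3 were at most 1.43 FPKM, and the groups lay far apart. Trdn (triadin, which anchors calsequestrin to the release channel) and Srl (sarcalumenin, a calcium-binding protein of the reticulum) followed with differences of 7.88 and 6.91.

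The promoters of Myh4 and Acta1 are shown because these are the myosin and the actin at the top of the coding genes in fibre libraries. Each line gives the 250 bases before the annotated start, 5′ to 3′ on the strand of the gene, from RefSeq on GRCm38.p6, the assembly that mm10 names. Capitals mark TATAAA, the E-box CAGCTG, the CArG box and the MEF2 site where they occur.
Myh4, chr11:67237562-67237811, plus strand: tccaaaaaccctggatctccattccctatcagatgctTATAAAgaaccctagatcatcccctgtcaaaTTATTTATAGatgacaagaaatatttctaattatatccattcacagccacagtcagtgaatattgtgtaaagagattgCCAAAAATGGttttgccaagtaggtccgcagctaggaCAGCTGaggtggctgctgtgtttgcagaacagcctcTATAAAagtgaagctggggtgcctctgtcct
Acta1, chr8:123894776-123895025, minus strand: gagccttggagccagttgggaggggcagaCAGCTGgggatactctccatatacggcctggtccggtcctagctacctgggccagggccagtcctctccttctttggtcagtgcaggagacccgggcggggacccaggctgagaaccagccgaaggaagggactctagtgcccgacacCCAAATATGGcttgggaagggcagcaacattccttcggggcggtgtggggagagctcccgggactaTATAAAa
In Myh4, capitals mark a MEF2 site from 182 to 173 bases before the start, a CArG box from 104 to 95, an E-box from 67 to 62 and TATAAA from 31 to 26 and from 213 to 208; another TATAAA, on the opposite strand, lies within the MEF2 site. In Acta1, they mark an E-box from 221 to 216 bases before the start, a CArG box from 73 to 64 and TATAAA from 7 to 2. Windows of 300 bases, from 250 before to 50 after the first listed start, were searched on both strands for 8110 tested genes that have one. The MEF2 site was in 12.9% of the 217 windows of genes called higher in fibres by at least 3 log2 units without overlap between the groups, predicted and structural RNA genes left out, in 1.24% of the 726 windows of genes higher in endothelial cells by that much and in 1.91% of all 8110. The E-box CAGCTG was in 29.5%, 18.5% and 14.9%, the CArG box in 4.61%, 1.52% and 1.43%, and TATAAA in 15.2%, 11.7% and 7.27%. The GC box CCGCCC was in 42.9%, 63.6% and 65.4%. A match of letters is a description and says nothing about binding.

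Most listed genes of ATP supply were higher in fibres. In the list of glycolysis and glycogen, 17 of 19 members were higher in fibres, with a median difference of 4.08. Aldoa, the aldolase of muscle, stood at 26.8, 28 and 25.3 against 1129, 1088 and 1273 FPKM (difference 5.39 ± 0.16, adjusted p = 9.92e-07). Pygm, the muscle glycogen phosphorylase, stood at 3.15, 1.16 and 2.93 against 768, 719 and 833 FPKM (difference 7.88 ± 0.27, adjusted p = 1.60e-06). The 2 members on the endothelial side were Hk1, the hexokinase found in most tissues, with 9.52, 10.2 and 9.72 against 0.102, 0.105 and 0.205 FPKM, and Pgm1, a phosphoglucomutase in the naming of mm10, with 10.9, 10.6 and 10.9 against 0, 0.234 and 0 FPKM. Both have a relative in the list that was on the fibre side. The list leaves out Eno1, Pgam1, Pfkl and Pygb, other forms of its enzymes, which were higher in endothelial cells as deposited. Among creatine and adenylate genes 5 of 7 were higher in fibres, led by Ckm, the cytosolic creatine kinase of muscle, with 2.32, 1.13 and 1.25 against 2109.5, 2038 and 2284 FPKM (difference 9.73 ± 0.21, adjusted p = 5.53e-07). Ckmt2, its mitochondrial counterpart, was listed at 0 in all endothelial libraries and stood at 269, 202 and 279 FPKM in fibres.

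The listed mitochondrial energy genes of the nucleus moved by less and as uniformly. All 22 listed nuclear genes of oxidative phosphorylation were higher in fibres with a median difference of 2.53. So were all 14 listed genes of the citric acid cycle, with a median of 2.13. The first list leaves out Cox6a1 and Cox8a, subunit genes of cytochrome c oxidase that were higher in endothelial cells and are described below. Atp5a1, the alpha subunit of ATP synthase, stood at 46.8, 40.1 and 49 against 207, 171 and 234 FPKM (difference 2.14 ± 0.18, adjusted p = 6.62e-05). Idh3a, the catalytic subunit of the NAD-dependent isocitrate dehydrogenase, stood at 2.39, 3.4 and 4.6 against 137, 132 and 141 FPKM (difference 4.98 ± 0.20, adjusted p = 3.00e-06), the largest of this list, in which the other differences ran from 1.12 to 3.26. In neither list did the groups overlap for any gene, as was the case for 76.5% of all genes tested. Fatty acid oxidation was closer to equal as deposited, with 7 of 12 genes higher in fibres, 5 not called and a median of 0.83, and all 12 were higher in fibres under each of the 3 other scalings, where 18.6% to 26.8% of all genes were on that side. Hadha, the alpha subunit of the mitochondrial trifunctional protein, stood at 8.68, 6.51 and 9.99 against 13.2, 11.9 and 15.5 FPKM (difference 0.64 ± 0.19, adjusted p = 0.0184). Etfa, which carries electrons from the fatty acyl dehydrogenases, was listed at 0 in endothelial replicate 2 but stood at 4.04 and 4.07 FPKM in the other two and at 15.9, 14.4 and 19.3 FPKM in fibres.

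The genes of the mitochondrial genome themselves did not give a single direction. As deposited, 4 of 13 were higher in fibres, 4 higher in endothelial cells and 5 not called, and without fibre replicate 1, or without fibre replicate 2, the fibre count was 2. mt-Nd1, a subunit of complex I, stood at 2418, 2122 and 2749.9 against 6473, 6403 and 5505 FPKM (difference 1.34 ± 0.26, adjusted p = 0.00336). mt-Atp6, a subunit of ATP synthase, stood at 946, 1789.8 and 1137 against 347, 210.3 and 293 FPKM (difference -2.16 ± 0.32, adjusted p = 9.31e-04), and was called lower in fibres under 3 of the 4 scalings, with -0.79 under median-of-ratios scaling. The 4 genes lower in fibres, mt-Co2, mt-Co3, mt-Atp6 and mt-Atp8, are neighbours on the mitochondrial genome. A predicted gene, Gm28437, stood at 1197, 1139.8 and 1246 against 5746, 5737 and 4987 FPKM, and nuclear copies of mitochondrial sequence can share reads with these genes, so the split between them is uncertain. Under median-of-ratios scaling 7 of the 13 were higher in fibres and 6 not called.

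Regulators of muscle identity and upkeep were on the fibre side at low to moderate levels. Of 15 tested muscle transcription factors, 10 were higher in fibres, 2 higher in endothelial cells and 3 not called. Myf6, the myogenic factor of mature fibres, was listed at 0 in the 3 endothelial libraries and stood at 48.8, 38.5 and 44.7 FPKM in fibres (difference 5.48 ± 0.13, adjusted p = 6.28e-07). Tbx15, a T-box factor of fast glycolytic fibres, stood at 0.79, 0.427 and 0.984 against 49.5, 57.3 and 51.1 FPKM (difference 4.96 ± 0.16, adjusted p = 1.37e-06). Maf, a large Maf factor linked to type 2B fibres, stood at 2.55, 3.72 and 2.62 against 18.1, 13.6 and 12.5 FPKM. The 2 factors on the endothelial side were Mef2a and Nfatc3, with differences of -1.07 and -1.07, close to the median of all genes, and under median-of-ratios scaling their differences were 0.16 and 0.11 and neither was called. At the neuromuscular junction 6 of 8 tested genes were higher in fibres. Rapsn, which clusters acetylcholine receptors, stood at 0.333, 0 and 0 against 2.62, 2.99 and 3.67 FPKM, and Chrna1, the receptor's alpha subunit, at 0.214, 0.123 and 0.336 against 1.55, 1.73 and 1.27 FPKM. Both were under 4 FPKM in every library, and 4 of the 12 listed genes did not pass the filter.

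In the proteasome and ubiquitin ligase list, the ligases were far from the proteasome subunits. Of 15 members 8 were higher in fibres and 7 not called as deposited, and 15, 15 and 13 were higher under median-of-ratios, upper-quartile and abundance-trimmed scaling. Trim63 (MuRF1), a ligase of the sarcomere that rises in wasting muscle, stood at 0, 0.0947 and 0 against 87.1, 50.5 and 55.9 FPKM (difference 5.95 ± 0.22, adjusted p = 2.04e-06). Trim54, a related ring-finger protein, stood at 0, 0 and 0 against 76.8, 66.1 and 81.7 FPKM (difference 6.24 ± 0.13, adjusted p = 5.53e-07). Fbxo32 (atrogin-1) stood at 3.83, 2.77 and 3.53 against 33.9, 34 and 29.5 FPKM (difference 2.94 ± 0.15, adjusted p = 6.80e-06). All 3 ligases were several-fold above every endothelial library in each fibre library, whereas the highest difference of a proteasome subunit was 0.92, for Psmd4, a ubiquitin receptor of the regulatory particle.

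On the endothelial side the junction, receptor and surface genes that define the cell type stood out. All 20 members of the endothelial identity list were higher in endothelial cells with a median difference of -6.01, against 61.9% of all genes on that side. Cdh5, the cadherin of endothelial junctions (chromosome 8, bases 104101613 to 104144504), stood at 510.2, 459.9 and 487 FPKM in endothelial cells and at 1.82, 1.02 and 1.09 FPKM in fibres (difference -7.73 ± 0.17, adjusted p = 5.66e-07). Pecam1, a junctional adhesion molecule, stood at 169, 276 and 166 against 0.985, 0.829 and 1.07 FPKM (difference -6.67 ± 0.22, adjusted p = 1.48e-06). Ptprb, the phosphatase of the vascular cadherin and of the angiopoietin receptor, stood at 177, 225 and 181 against 0.529, 0.28 and 0.578 FPKM (difference -7.06 ± 0.16, adjusted p = 5.85e-07). For these 3 genes each fibre library was under 2 FPKM. Plvap, the diaphragm protein of fenestrae and caveolae, was uneven among endothelial libraries, with 133, 383 and 142 FPKM, the highest in replicate 2, against 0.369, 0.803 and 1.14 FPKM in fibres. The identity genes summed to 2224 to 2558 FPKM in endothelial libraries and 8.62 to 10.6 FPKM in fibre libraries. The fast contractile genes summed to 30.7 to 50.5 FPKM in endothelial libraries and 38640.0 to 41939.5 FPKM in fibre libraries.

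The promoters of Tie1 and Egfl7, a receptor kinase and a secreted protein of endothelial cells, are shown beside those of the fibre genes because both were under 0.2 FPKM in all fibre libraries. Capitals mark the ETS core AGGAAG, here on either strand, and the windows hold 250 bases as above.
Tie1, chr4:118489850-118490099, minus strand: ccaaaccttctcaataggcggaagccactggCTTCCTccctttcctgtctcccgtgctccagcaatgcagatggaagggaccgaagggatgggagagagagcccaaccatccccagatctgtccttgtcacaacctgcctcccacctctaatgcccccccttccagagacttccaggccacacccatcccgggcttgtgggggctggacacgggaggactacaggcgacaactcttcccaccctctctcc
Egfl7, chr2:26580833-26581082, plus strand, the first of 3 listed starts: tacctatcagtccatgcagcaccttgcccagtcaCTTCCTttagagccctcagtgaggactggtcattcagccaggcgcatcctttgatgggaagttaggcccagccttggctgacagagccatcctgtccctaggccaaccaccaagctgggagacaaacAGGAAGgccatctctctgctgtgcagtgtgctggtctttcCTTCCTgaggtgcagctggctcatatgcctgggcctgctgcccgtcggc
Tie1 has the core from 219 to 214 bases before the start, on the other strand. Egfl7 has it from 89 to 84 bases on its own strand and from 216 to 211 and 49 to 44 bases on the other. Tie1 stood at 58.6, 60.5 and 58.5 against 0.0225, 0 and 0 FPKM (difference -5.90 ± 0.11, adjusted p = 5.51e-07) and Egfl7 at 77.7, 62 and 78.8 against 0.0985, 0.17 and 0.158 FPKM (difference -6.01 ± 0.14, adjusted p = 6.00e-07). Over the promoter sets the core was in 38.0% of the 726 endothelial windows, 32.7% of the 217 fibre windows and 32.9% of all 8110.

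Transport genes of muscle capillaries were among the most abundant coding genes in endothelial cells. All 12 members of the capillary list were higher in endothelial cells, against 61.9% of all genes, with a median of -5.84. Aqp1, the water channel, stood at 856, 853 and 674 against 4.33, 4.84 and 5.43 FPKM (difference -7.08 ± 0.17, adjusted p = 6.03e-07). Cd36, a fatty acid transporter, stood at 555, 527 and 544 against 3.8, 2.52 and 2.57 FPKM (difference -7.11 ± 0.17, adjusted p = 6.03e-07). Fabp4, a fatty acid binding protein of capillary endothelium and fat cells, stood at 473, 396 and 504 against 0.67, 0.939 and 1.09 FPKM (difference -7.92 ± 0.16, adjusted p = 5.53e-07). For each of these genes the 3 endothelial libraries were close together and the groups did not overlap. Cd300lg, a surface receptor of capillary endothelium, stood at 141, 88.7 and 129 against 0.308, 0.222 and 0.342 FPKM. Fibres are known to express Cd36 too. Its values in the fibre libraries, 3.8, 2.52 and 2.57 FPKM, were above the level of a single fragment, as were those of Aqp1. Which cells these fragments came from was not tested.

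Genes of arteries and veins differed in how the 3 endothelial libraries lined up. All 10 arterial and all 8 venous genes were higher in endothelial cells, against 61.9% of all genes, with medians of -4.00 and -4.63. Efnb2, the ephrin of arterial endothelium, stood at 46, 47.5 and 48.3 FPKM and was level over the replicates, against 0.445, 0.414 and 0.625 FPKM in fibres (difference -5.02 ± 0.12, adjusted p = 6.18e-07). Vwf, the clotting factor carrier of larger and venous vessels, stood at 22.6, 91.5 and 20 against 0.0214, 0.0652 and 0.0919 FPKM (difference -5.08 ± 0.55, adjusted p = 2.10e-04). Lrg1, a secreted glycoprotein found in venous endothelium, stood at 18.7, 90.4 and 22.3 against 0.611, 0.953 and 0 FPKM (difference -4.57 ± 0.60, adjusted p = 5.36e-04). Selp, P-selectin, stood at 39.2, 91.4 and 30.9 against 0.659, 0.531 and 1.64 FPKM. Endothelial replicate 2 was the highest of the 3 for all 8 venous genes. Their sum was 424 FPKM there and 177 FPKM in each of the others. The arterial sums were 214 to 221 FPKM, with replicate 2 the lowest for 4 and the highest for 5 of the 10 genes. All 8 venous genes were still called higher in endothelial cells without replicate 2.

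All 16 endothelial transcription factors were on the endothelial side, against 61.9% of all genes, with a median of -4.37. Epas1, the hypoxia-inducible factor HIF-2 alpha, stood at 349, 321 and 356 against 6.92, 6.53 and 7.44 FPKM (difference -5.43 ± 0.14, adjusted p = 6.65e-07). Klf2, a factor induced by flow, stood at 112, 124 and 123 against 1.37, 1.44 and 2.42 FPKM (difference -5.48 ± 0.18, adjusted p = 1.33e-06). The spread over the 3 endothelial libraries was small in both. Ets2 and Klf4, an ETS factor and a second flow-induced factor, had smaller differences of -3.50 and -3.82, with fibre values of 8.7, 7.47 and 7.89 and 4.84, 5.12 and 5.43 FPKM.

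Notch signalling passes between neighbouring cells and sets arterial fate and sprouting. Of 15 listed genes, 14 were tested. All 14 were higher in endothelial cells as deposited, against 61.9% of all genes, with a median of -3.12. Under all 4 scalings 11 were called on that side, against 36.3% of all genes. Among the ligands, Dll4 stood at 54.7, 31 and 52.6 against 0.289, 0.109 and 0.475 FPKM (difference -5.16 ± 0.25, adjusted p = 5.67e-06), and the differences of Jag1, Jag2 and Dll1 were -4.07, -2.76 and -2.72. Among the receptors, Notch1 stood at 20.6, 17.2 and 21.4 against 0.0779, 0.235 and 0.201 FPKM (difference -4.14 ± 0.14, adjusted p = 1.45e-06) and Notch4, listed at 0 in all fibre libraries, at 8.85, 9.95 and 14.1 FPKM in endothelial cells. Notch3, the receptor of mural cells, stood at 16.4, 4.02 and 21.6 FPKM, lowest in replicate 2, against 0.0527, 0.15 and 0.171 FPKM in fibres. The targets Hey1, Nrarp, Heyl and Hey2 had differences of -4.16, -4.18, -2.04 and -1.21. The 3 members that lost their call under median-of-ratios scaling were the receptor Notch2, the nuclear effector Rbpj and the target Hes1, which fibres also expressed, with 17.1, 11.7 and 13.8 FPKM in fibres against 42.9, 35.2 and 48.9 FPKM for Hes1. Dll3 was listed at 0 in all 6 libraries.

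Genes of vessel tone split by enzyme. Of 12 tested, 11 were higher in endothelial cells, against 61.9% of all genes. Nos3, the endothelial nitric oxide synthase, stood at 20.2, 22.1 and 19.5 FPKM and was listed at 0 in all fibre libraries (difference -4.43 ± 0.11, adjusted p = 6.98e-07), whereas Nos1, the neuronal synthase that is anchored under the fibre membrane, stood at 0.352, 0.105 and 0.236 against 8.61, 7.31 and 7.1 FPKM (difference 2.82 ± 0.14, adjusted p = 6.39e-06). Neither gene overlapped between groups. Ece1, which activates endothelin, stood at 112, 149 and 114 against 1.95, 3.55 and 2.82 FPKM (difference -5.07 ± 0.21, adjusted p = 3.17e-06). Ace, the angiotensin-converting enzyme, stood at 39.6, 80.2 and 40.2 FPKM, highest in replicate 2, against 0.17, 1.87 and 1.86 FPKM.

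Genes of antigen presentation and interferon response were higher in endothelial cells, 18 of 18 against 61.9% of all genes, with a median of -4.27. B2m, the light chain of class I molecules, stood at 592, 945 and 519 against 9.23, 11.9 and 10.9 FPKM (difference -5.83 ± 0.26, adjusted p = 3.92e-06). H2-D1, a class I heavy chain, stood at 207, 264 and 169 against 3.59, 2.61 and 2.49 FPKM (difference -5.77 ± 0.21, adjusted p = 2.03e-06); class I genes resemble each other, so reads can be split between them. Ifitm3, an interferon-induced membrane protein, stood at 271, 305 and 307 against 2.97, 5.76 and 6.1 FPKM (difference -5.68 ± 0.25, adjusted p = 3.78e-06). Replicate 2 was the highest endothelial library for B2m and H2-D1 and for 9 of the 18 genes in all.

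Of the non-muscle cytoskeleton, 18 of 18 genes were higher in endothelial cells as deposited, with a median of -3.79, and 16 of 18 under median-of-ratios scaling, where 36.3% of all genes were on that side. Tmsb4x, the monomeric-actin buffer thymosin beta 4, stood at 607, 613 and 431 against 3.39, 7.58 and 8.32 FPKM (difference -6.27 ± 0.33, adjusted p = 7.74e-06). Actb, the actin of non-muscle cells, stood at 453, 259.9 and 465 FPKM in endothelial cells (difference -3.69 ± 0.26, adjusted p = 3.00e-05). In both cases the groups did not overlap, and fibres kept 27.9, 25.8 and 32.1 FPKM of Actb. The basement membrane is a sheet of collagen, laminin and proteoglycan around fibres and vessels alike. Of its listed genes, 13 of 14 were higher in the endothelial libraries, against 61.9% of all genes, with a median of -3.44. Col4a1, a chain of the main network collagen, stood at 269, 134 and 280.3 against 0.889, 1.72 and 1.56 FPKM (difference -6.52 ± 0.32, adjusted p = 6.09e-06). Hspg2, the proteoglycan perlecan, stood at 78.8, 43 and 84.4 against 2.17, 3.21 and 2.59 FPKM (difference -4.20 ± 0.28, adjusted p = 2.22e-05). Replicate 2 was the lowest endothelial library in 11 of the 14. It was also the lowest for the summed markers of pericytes and smooth muscle, and which cells made these transcripts was not tested. Lama2, the laminin chain of the fibre's own basement membrane, was the member not called, with 1.36, 0.112 and 0.86 against 1.24, 1.58 and 0.927 FPKM; its groups overlapped, and it was called higher in fibres under the 3 other scalings.

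**Figure D3:**
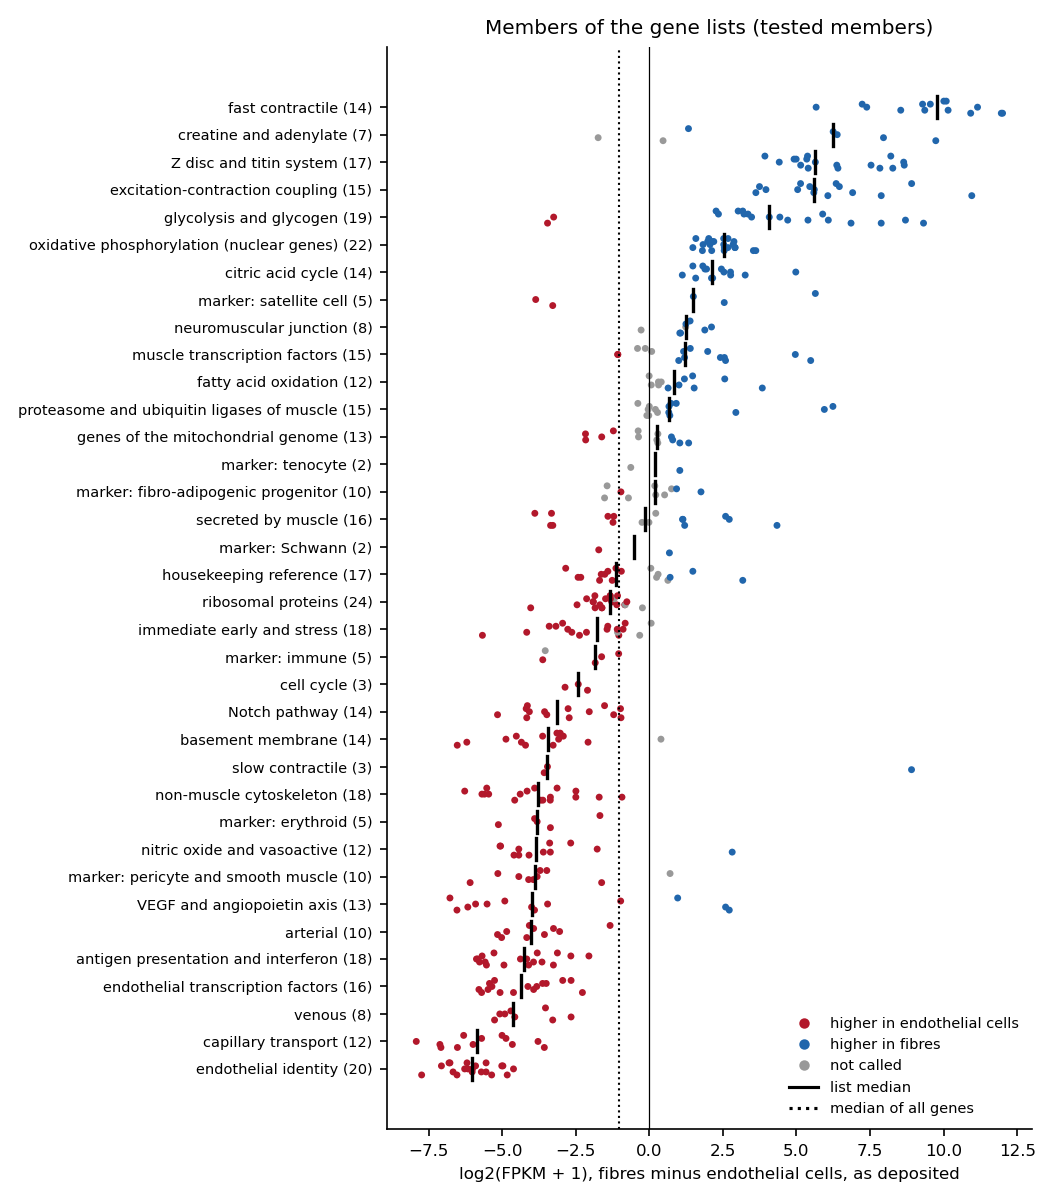
Difference between fibres and endothelial cells in log2(FPKM + 1), as deposited, for each tested member (points, coloured by call) of the gene lists, with the number of tested members in brackets, list medians as black bars and the median of all genes as a dotted line. The fast contractile, Z disc and titin, and excitation-contraction coupling lists lie at the right and lists of endothelial identity at the left. The slow contractile list, with 3 tested members, has its median on the left, at -3.46. The ribosomal protein and housekeeping lists lie near the dotted line, and the proteasome and mitochondrial genome lists lie to its right. In these lists of both kinds calls change with the scaling.

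Many proteins have one form in most cells and another in striated muscle, and 32 such pairs of related genes were set side by side. In 27 pairs the 2 genes were called on opposite sides as deposited, each with the candidate fibre form in fibres. Of all genes, 61.9% were called higher in endothelial cells and 12.5% higher in fibres. The pairs and their candidate forms were chosen with earlier results of these data known, so the count and its direction partly follow from that choice. The 27 were 24 under median-of-ratios and upper-quartile scaling, where Slc2a1, Eno1 and Pgam1 were no longer called or, for Eno1 under median-of-ratios scaling, called on the fibre side (0.40). Some pairs, such as calreticulin with calsequestrin, are related in function rather than near copies. The members of a pair are described together because a difference between 2 forms is within the same libraries, although each form was scaled with them.

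In the filament and calcium pairs named here the 2 forms lay on opposite sides. The non-muscle myosin Myh9 stood at 138, 179.7 and 146 against 2.26, 2.02 and 1.75 FPKM (difference -5.69 ± 0.16, adjusted p = 8.37e-07), opposite to Myh4 above. The non-muscle actinin Actn4 stood at 76, 72 and 80.2 against 1.9, 1.5 and 2.09 FPKM, and Actn3 at 0.0912, 0 and 0 against 1134, 1117 and 1112 FPKM. The tropomyosins Tpm4 and Tpm2 had differences of -5.60 and 5.95, the essential light chains Myl6 and Myl1 differences of -3.90 and 10.01, and the filamins Flna and Flnc differences of -4.03 and 4.92. Among calcium pumps, Atp2a3 stood at 12.9, 23.4 and 11.8 against 0, 0.104 and 0.0805 FPKM, opposite to Atp2a1. The release channels Itpr1 and Ryr1 had differences of -3.82 and 6.46, and the calcium buffers Calr and Casq1 differences of -1.82 and 8.91.

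Pairs in metabolism and at the membrane also went to opposite sides. Cox6a1 and Cox6a2, forms of a subunit of cytochrome c oxidase, stood at 40.8, 27.4 and 35.9 against 2.01, 2.68 and 1.87 FPKM and at 0 in all endothelial libraries against 418, 404 and 411 FPKM. Cox8a and Cox8b had differences of -2.67 and 7.93. In the remaining oxidase pair both forms were higher in fibres, Cox7a1 by 7.47 and Cox7a2 by 1.70, so this pair is not a swap. The fatty acid binding proteins swapped, with Fabp3 listed at 0 in endothelial cells and at 48, 62.5 and 71.6 FPKM in fibres, opposite to Fabp4. Cpt1a and Cpt1b, which admit fatty acids to mitochondria, had differences of -3.45 and 3.84. Cpt1b was low in fibre replicate 2 (24.6, 4.28 and 25 FPKM in fibres). Hexokinases (Hk1 -3.25, Hk2 5.89), phosphofructokinases (Pfkl -2.90, Pfkm 6.85), glycogen phosphorylases (Pygb -2.38, Pygm 7.88) and AMP deaminases (Ampd2 -1.49, Ampd1 6.25) each had one difference below and one above 0.

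Caveolae are small pits of the cell membrane with a coat of caveolins and cavins, and both families differed in their form. Cav1 stood at 91.4, 77.1 and 89.4 against 1.94, 1.73 and 1.75 FPKM (difference -4.95 ± 0.13, adjusted p = 7.09e-07) and Cav3, the caveolin of muscle, at 0.261, 0 and 0 against 20.1, 20.5 and 28.4 FPKM (difference 4.46 ± 0.18, adjusted p = 3.13e-06). Sdpr (cavin 2) stood at 362, 339 and 355 against 1.49, 1.43 and 1.67 FPKM and Murc (cavin 4) at 0.275, 0 and 0.165 against 99.3, 71.9 and 77 FPKM. No library of one group reached the other group for any of the 4 genes. The insulin-responsive glucose transporter Slc2a4 was higher in fibres by 4.13, with Slc2a1 at -1.40 as deposited and -0.34, not called, under median-of-ratios scaling. Of the sodium pump's beta subunits Atp1b3 and Atp1b1 had differences of -3.24 and 2.62, of the adenine nucleotide carriers Slc25a5 and Slc25a4 -2.22 and 4.09, and of the carbonic anhydrases Car4 and Car3 -5.99 and 2.74.

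Translation had a swap of its own. Eef1a1, the elongation factor of most cells, stood at 279.5, 549 and 275 against 4.49, 7.83 and 10.6 FPKM (difference -5.40 ± 0.38, adjusted p = 2.82e-05), and Eef1a2, the form of muscle and neurons, was listed at 0 in endothelial cells and stood at 265, 238 and 286 FPKM in fibres (difference 8.04 ± 0.13, adjusted p = 4.50e-07). Rpl3, a large-subunit protein, and Rpl3l, its muscle-restricted relative, were paired after their values were seen. Rpl3 stood at 17.8, 38.8 and 26.3 against 0.617, 0.823 and 0.592 FPKM (difference -4.03 ± 0.27, adjusted p = 2.40e-05). Rpl3l was listed at 0 in all endothelial libraries and stood at 139, 115 and 140.0 FPKM in fibres (difference 7.04 ± 0.13, adjusted p = 5.53e-07). Each of these 4 genes was called under all 4 scalings, and the fibre libraries did not overlap the endothelial ones. The pairs that were not opposite, apart from Cox7a2 and Cox7a1, were Tubb5 and Tubb2a (both endothelial, -3.13 and -4.39) and those with a member not called as deposited, which were Ckb (-1.74), Ldhb (0.62) and Slc16a1 (0.62).

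**Figure D4:**
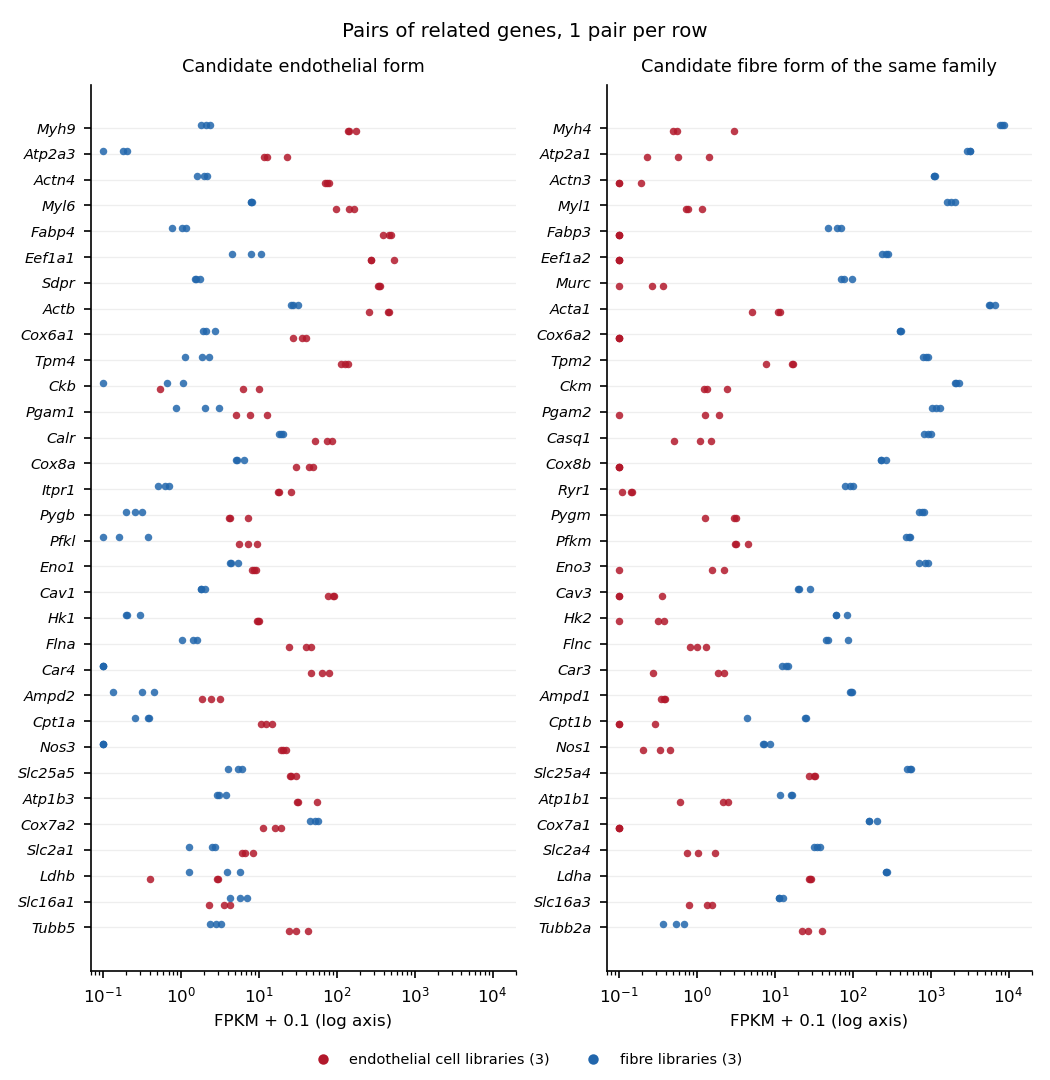
FPKM + 0.1 on a log axis in each of the 3 endothelial (red) and 3 fibre (blue) libraries for 32 pairs of related genes, one pair per row, with the candidate endothelial form on the left and the candidate fibre form on the right. In 27 rows the red points lie to the right on the left side and the blue points on the right side, and Slc2a1, Eno1 and Pgam1 lose or change that call under median-of-ratios scaling.

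Vascular growth factors and their receptors were divided between the populations. Of 13 tested members of the VEGF and angiopoietin axis 3 were higher in fibres and 10 higher in endothelial cells as deposited. For all genes the shares were 12.5% and 61.9%. All 3 members on the fibre side are ligands. Vegfa (chromosome 17, bases 46016993 to 46032377), the main growth factor of endothelial cells, stood at 4.11, 5.26 and 4.29 against 43.7, 30.4 and 33.3 FPKM (difference 2.72 ± 0.18, adjusted p = 2.12e-05). Vegfb stood at 2.33, 2.34 and 3.23 against 22.1, 17.9 and 22.6 FPKM (difference 2.59 ± 0.16, adjusted p = 1.69e-05). Angpt1, which stabilises vessels, stood at 0.584, 0.432 and 0.855 against 2.13, 2.71 and 1.71 FPKM (difference 0.97 ± 0.18, adjusted p = 0.00253). Every fibre library was above every endothelial library for each of the 3, although Angpt1 was under 3 FPKM throughout. The receptors were on the other side. Kdr (VEGF receptor 2; chromosome 5, bases 75932827 to 75979072) stood at 138, 80.9 and 154 against 0.0643, 0.114 and 0.135 FPKM (difference -6.77 ± 0.25, adjusted p = 2.04e-06). Flt1 (VEGF receptor 1) stood at 130.2, 123 and 122 against 0.304, 0.315 and 0.465 FPKM (difference -6.53 ± 0.12, adjusted p = 5.51e-07), and Tek, the angiopoietin receptor, at 89, 115 and 96.2 against 0.0727, 0.59 and 0.608 FPKM (difference -6.16 ± 0.21, adjusted p = 1.45e-06). Kdr was lowest among endothelial libraries in replicate 2, and no fibre library reached 1 FPKM for any of the 3 receptors.

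The remaining members were endothelial ligands and receptors. Vegfc, a ligand of the lymphatic receptor, was listed at 0 in fibres and stood at 9.13, 14.5 and 7.39 FPKM in endothelial cells, and its receptor Flt4 did so at 15.9, 13.8 and 15.4 FPKM. Angpt2, the context-dependent antagonist of Angpt1, stood at 17.9, 14.3 and 18.1 against 0.175, 0.114 and 0.265 FPKM (difference -3.90 ± 0.14, adjusted p = 1.94e-06). Angpt1 and Angpt2 thus lay on opposite sides in these libraries. The co-receptors Nrp1 and Nrp2 had differences of -5.51 and -4.91, and Nrp1 was the receptor gene of this list with the highest fibre values, 3.44, 2.48 and 3.07 FPKM. Pgf, placental growth factor, was called endothelial only as deposited (-0.97 ± 0.33, adjusted p = 0.0329), its libraries overlapped, and its difference under median-of-ratios scaling was -0.55, not called. Figf (Vegfd) and Angpt4 did not pass the filter.

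Of 38 ligand and receptor pairs known from the literature, 6 had the ligand higher in fibres and the receptor higher in endothelial cells: Vegfa with Kdr and Flt1, Vegfb with Flt1 and Nrp1, Angpt1 with Tek, and Wnt4 with Fzd4. The reverse is a ligand higher in endothelial cells with its receptor higher in fibres. By limma it was seen in 0 pairs under each of the 4 scalings and in 0 pairs at an unadjusted p below 0.05. In 7 of the 38 pairs a partner was not tested, so these pairs could not be counted on either side. In 6 others 1 or both partners were not called as deposited. Like the pairs of related genes, these pairs were chosen with earlier results of these data known. Since 61.9% of all genes were on the endothelial side against 12.5% on the fibre side, pairs with both members endothelial were the most frequent, 19 of 38 as deposited and 16 under each other scaling. Wnt4 stood at 0.368, 0.288 and 0.359 against 1.84, 1.62 and 1.7 FPKM (difference 1.02 ± 0.13, adjusted p = 4.63e-04) and Fzd4, a receptor for norrin and Wnt proteins, at 50.7, 50.2 and 53.1 against 4.81, 5.82 and 6.55 FPKM (difference -2.97 ± 0.14, adjusted p = 5.88e-06). Fzd4 is not restricted to one group, since fibres also stood at several FPKM.

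Endothelial ligands with a receptor on the same side included vasoactive peptides and factors for mural and blood cells. Edn1, endothelin 1, stood at 22.7, 29.5 and 21.6 against 0.11, 0.182 and 0.236 FPKM, and its receptors Ednrb and Ednra had differences of -3.38 and -1.42. Apln, the peptide apelin, and its receptor Aplnr had differences of -1.77 and -5.05. Pdgfb, which recruits pericytes, stood at 39.2, 26.3 and 40.6 against 0.785, 1.2 and 0.982 FPKM (difference -4.17 ± 0.20, adjusted p = 5.50e-06), and Pdgfrb, the receptor on pericytes, at 25.9, 7.42 and 31.9 against 0.154, 0.0631 and 0.207 FPKM. Cxcl12 and Cxcr4, a chemokine and its receptor, had differences of -6.20 and -3.52, Kitl and Kit -5.81 and -1.81, Bmp6 and Bmpr2 -4.69 and -2.27, and the ephrin pair Efnb2 and Ephb4 -5.02 and -5.26. A receptor of this group whose endothelial values varied most was Ednrb, with 33.4, 5.65 and 12.1 FPKM over replicates 1 to 3.

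Of 16 tested genes that muscle is known to secrete, 6 were higher in fibres and 7 higher in endothelial cells. Among all genes the shares were 12.5% and 61.9%. Mstn, myostatin, the inhibitor of muscle growth, was listed at 0 in endothelial cells and stood at 18.7, 20.3 and 18.8 FPKM in fibres (difference 4.34 ± 0.11, adjusted p = 6.77e-07). Fgf6, a muscle-specific fibroblast growth factor, was listed at 0 in endothelial cells and stood at 1.68, 0.897 and 1.06 FPKM in fibres (difference 1.13 ± 0.19, adjusted p = 0.00161). Il6, which muscle releases during exercise, was on the endothelial side here, with 17.2, 21.9 and 20.5 against 0.839, 1.35 and 1.06 FPKM (difference -3.32 ± 0.16, adjusted p = 5.06e-06). Igf2, a growth factor, stood at 26.8, 41.6 and 29.5 against 0.966, 1.27 and 1.49 FPKM (difference -3.89 ± 0.20, adjusted p = 7.17e-06), and Angptl4, an inhibitor of lipoprotein lipase, at 21.6, 6.3 and 19 FPKM, lowest in replicate 2, against 0.626, 0.57 and 0.426 FPKM.

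**Figure D5:**
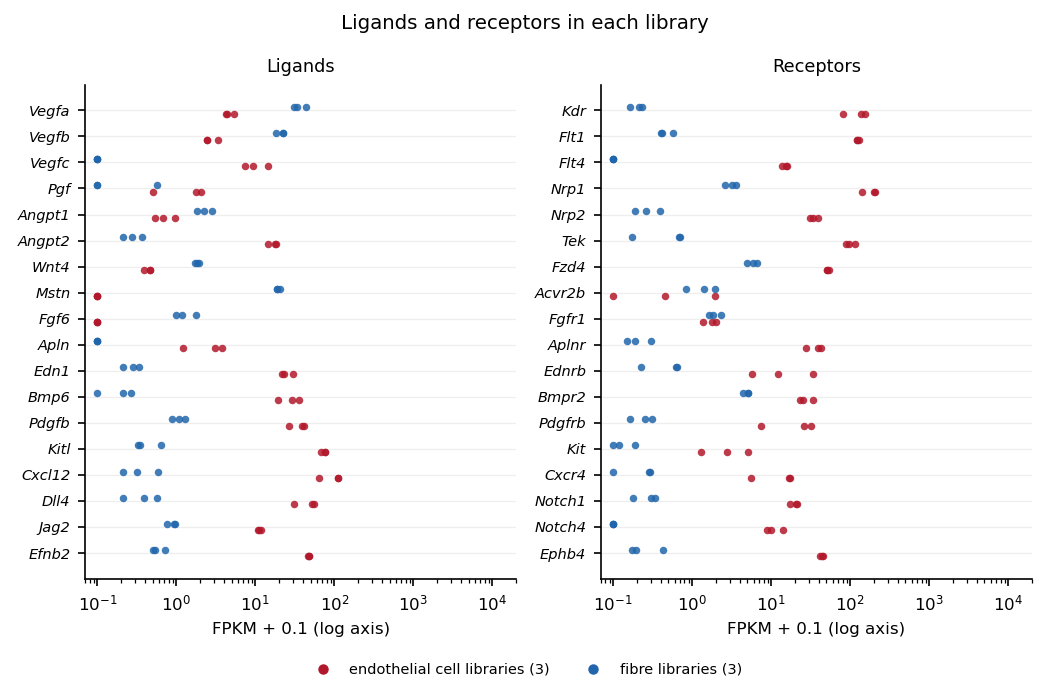
FPKM + 0.1 on a log axis in each endothelial (red) and fibre (blue) library for 18 ligands (left) and 18 receptors (right); rows are not all matched pairs. The blue points lie to the right for Vegfa, Vegfb, Angpt1, Wnt4, Mstn and Fgf6 among the ligands, and the receptors lie to the right in red except for Acvr2b and Fgfr1, whose groups overlap.

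For genes close to the median of all genes, the call often depended on the scaling. Of 24 ribosomal protein genes, 21 were lower in fibres and 3 not called as deposited, with a median of -1.33, which is -0.31 relative to all tested genes. Under median-of-ratios scaling 2 were lower and 1 higher, under upper-quartile scaling 4 and 1, and under scaling without the most abundant genes 12 and 0. Rpl4 stood at 239, 432 and 247 against 154, 163 and 178 FPKM, a difference of -0.83 as deposited and 0.53, not called, under median-of-ratios scaling. Endothelial replicate 2 was the highest of the 3 endothelial libraries for 22 of 24 ribosomal protein genes, whose sum was 3136 FPKM there and 1736 and 1768 FPKM in the others. Among 17 tested genes often used as references, 10 were lower in fibres, 3 higher and 4 not called as deposited. Under median-of-ratios scaling the numbers were 4, 7 and 6. Of all genes, 61.9% were lower in fibres and 12.5% higher as deposited, and 36.3% and 26.8% under median-of-ratios scaling. The split of this list moved with the scaling, as did that of all genes. Ywhaz, a 14-3-3 protein, was lower in fibres under all 4 scalings (-2.84 as deposited) and Pgk1, a glycolytic enzyme, higher under all 4 (3.18).

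Immediate early and heat shock genes were at high levels in both groups. Of 18 genes, 15 were higher in endothelial cells and 3 not called as deposited, with a median of -1.78. Of all genes 61.9% were higher in endothelial cells, with a median of -1.02 over all tested. Under median-of-ratios scaling 8 of the 18 were higher in endothelial cells and 3 in fibres, against 36.3% and 26.8% of all genes. The list median was then -0.46, against -0.24 for all genes. Hspa1a (chromosome 17, bases 34969359 to 34972156) and its near copy Hspa1b, inducible heat shock proteins, were the first of the 14 most abundant genes on the endothelial side. Hspa1a stood at 1123, 755 and 1289.6 against 28.2, 9.7 and 25.7 FPKM (difference -5.67 ± 0.43, adjusted p = 4.01e-05), and Hspa1b at 802, 1027 and 1095 against 71.8, 48.9 and 42.3 FPKM (difference -4.16 ± 0.25, adjusted p = 1.53e-05); reads can be split between the 2 copies. Jun, a subunit of the AP-1 factor, stood at 442, 363 and 496 against 98.3, 45.6 and 53.7 FPKM (difference -2.77 ± 0.31, adjusted p = 2.62e-04). Fibre replicate 1 was the highest fibre library for 16 of the 18 genes and endothelial replicate 2 the lowest endothelial library for 16 of 18. Whether the isolation of cells or fibres took part in these levels was not tested. The cell cycle list was mostly below the filter, with 3 of 13 genes tested, all 3 higher in endothelial cells, among them Mki67, a proliferation marker, at 4.52, 1.68 and 5.09 against 0, 0.051 and 0.0916 FPKM.

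Markers of other cells were measured in both groups, and their part in the differences above was not tested. In libraries of many cells, fewer cells of a kind and less RNA for each cell cannot be told apart. The 10 markers of pericytes and smooth muscle summed to 632, 316 and 766 FPKM in endothelial replicates 1, 2 and 3. In fibre libraries they summed to 29.4 to 30.9 FPKM. Of the 10, 9 were called endothelial as deposited, against 61.9% of all genes. Rgs5, a pericyte marker, stood at 392, 153 and 473 against 3.82, 2.82 and 3.98 FPKM (difference -6.09 ± 0.42, adjusted p = 2.69e-05). Abcc9, the member not called, stood at 23.2, 3.44 and 25.5 against 21.5, 22.7 and 22.2 FPKM, low in endothelial replicate 2 only. It encodes a subunit of ATP-sensitive potassium channels, and the channel's pore genes lay on opposite sides, Kcnj8 at 23.7, 3.52 and 23.6 FPKM and listed at 0 in fibres, and Kcnj11 at 0.271, 0 and 0.281 against 9.73, 10.8 and 8.59 FPKM.

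Of the other marker lists, the 11 immune markers summed to 91.5, 14.3 and 122 FPKM in endothelial replicates 1, 2 and 3 and to 1.49 to 4.76 FPKM in fibres, with Lyz2, a lysozyme of myeloid cells, at 43.7, 7.94 and 62.3 against 0.269, 3.16 and 1.59 FPKM (difference -3.62 ± 0.79, adjusted p = 0.00558). The T-cell marker Cd3e and the B-cell marker Cd79a were at or below 0.346 FPKM in all 6 libraries. The 6 erythroid markers summed to 270.2 to 582 FPKM in endothelial and 11.6 to 52.7 FPKM in fibre libraries, in both cases mostly globin genes, whose copies resemble each other. The 11 markers of fibro-adipogenic progenitors summed to 39.2 to 117 FPKM in endothelial and 44.2 to 112 FPKM in fibre libraries, and 7 of the 10 tested were not called, 2 were higher in fibres and 1 in endothelial cells, against 1 and 4 without endothelial replicate 2. Pax7 and Calcr, defining markers of satellite cells, were at or below 0.349 FPKM throughout, and 5 of the 10 satellite markers were tested. Of these, 3 were higher in fibres (Des, Sdc4 and Cdh15), among them desmin, which fibres also express, and 2 were higher in endothelial cells (Spry1 and Vcam1), with Vcam1 also an adhesion molecule of endothelium. None of the 5 adipocyte markers in the table was tested, and their sum was at most 1.66 FPKM in a library. The 5 tendon cell markers summed to 3.80, 7.59 and 5.19 FPKM in endothelial replicates 1, 2 and 3 and to 17.4, 1.24 and 2.45 FPKM in fibre replicates 1, 2 and 3, so fibre replicate 1 was above and the other fibre libraries below every endothelial one. Of the 2 tested, Fmod, a matrix proteoglycan, was not called (-0.63 as deposited and 0.36 under median-of-ratios scaling), although without fibre replicate 1 it was called higher in endothelial cells. Scx, a tendon cell factor and the other one tested, was listed at 0 in endothelial cells and stood at 1.57, 0.613 and 1.09 FPKM in fibres, highest in replicate 1. Endothelial replicate 2, lowest for the mural, immune, erythroid and progenitor sums, left the endothelial identity calls as they were: all 20 were called without it.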

How the data were processed

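RNA of 3 endothelial and 3 fibre libraries was compared, and the 2 satellite cell libraries entered 1 alternative. The submitters' processing notes name FastQC, Trimmomatic, HISAT2, StringTie, bedtools and the build mm10, and the sources used here do not give their versions, their settings or the use of strand. The values tested are the FPKM per gene that the authors deposited, with no scaling between libraries. The TPM table that the authors deposited and the transcript FPKM served as alternatives, and the depth came from the coverage per transcript that the authors deposited. The specificity scores in the deposited TPM table were not used. For genes with several listed transcripts and at least 5 FPKM in endothelial replicate 1, the gene FPKM was 0.74 of the sum of the transcripts' FPKM at the median, and it was equal to it (ratio 1) for genes with 1 transcript, so a level depends on how the authors summed transcripts.

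Genes with at least 1 FPKM in at least 2 of the 6 libraries were tested on the log2 scale, log2(FPKM + 1), with limma 3.58.1 in R 4.3.3 (mean-variance trend, two-sided, Benjamini-Hochberg adjustment over all genes tested, n = 3 and 3). The procedure was tested on simulated data. An exact permutation test of 3 against 3 libraries cannot give a two-sided p below 0.1. Depth limits genes near 1 FPKM, and the value of a single fragment is given with the results. FPKM gives a relative level, so each result was refitted with 3 other scalings.

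Named genes are the 14 most abundant of each side with a difference of at least 3 log2 units and no overlap, up to 4 called members of each gene list on its main side and up to 2 on the other, the VEGF, angiopoietin and Notch genes, and the members of the pairs. Members not called are named with their values. Myh1, Myh2, Myh7, Myl2, Myl3, Csrp3, Egfl7, Gm28437, mt-Co2, mt-Co3, Rpl3, Rpl3l, Cd3e, Cd79a, Pax7, Calcr, Abcc9, Kcnj8, Kcnj11, Fmod, Ube2c and the 4 genes with transcript shares were named after their values were seen. The members, lists and pairs were chosen with earlier results of these data known. Genes that share sequence or overlap can share fragments, and the sources do not say how the authors assigned such fragments. Promoters and gene positions are those of RefSeq on GRCm38.p6. Protein sequences were not used here.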

Additional observations from a re-analysis of the deposited data

How the results depend on the processing

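The number of genes called depended most on the scaling and on the size of difference tested. Genes higher in fibres numbered 3885 under median-of-ratios scaling, 3531 under upper-quartile scaling and 824 when tested against a log2 difference of 1, and those higher in endothelial cells numbered 5256, 5723 and 4033. The share of fibre calls among all calls moved from 16.8% as deposited to 42.5% under median-of-ratios scaling. The other settings stayed within 1.5 times of the counts given above. Scaling without the most abundant genes gave 2698 and 6959 calls, the fit with all 8 libraries 1803 and 8982, a pseudocount of 0.1 gave 1771 and 8912, no filter on low values 1834 and 9793, at least 1 FPKM in 3 libraries 1749 and 8013, and the deposited TPM values gave 1605 and 8591.

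Leaving out each library in turn gave 1652 to 1779 genes higher in fibres and 8214 to 9402 higher in endothelial cells, 148 to 153 and 212 to 230 called members over all lists, 27 to 28 opposite pairs of related genes, 6 to 6 pairs of a fibre ligand and an endothelial receptor, and 16 to 19 ligand and receptor pairs with both members endothelial. With the replicate number as a block 1781 and 8906 genes and 28 opposite pairs were called. The numbers share no source in the labels, and the deviations of same-numbered libraries from their group means were correlated at -0.02, 0.01 and 0.00, so they were not taken to pair the samples.

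Of 191 named genes called as deposited, 177 were called on the same side under all 3 other scalings, 188 without each library in turn and 191 with the block. Directions turned in 11 cases, and the cause was not tested. Under median-of-ratios and upper-quartile scaling the differences were 0.40 and 0.25 for Eno1, 0.16 and 0.0014 for Mef2a, 0.53 and 0.35 for Rpl4 and 0.36 and 0.23 for Fmod, which was not called. Under median-of-ratios scaling they were 0.14 for mt-Co3 and 0.11 for Nfatc3. Abcc9, not called as deposited, ranged from -0.13 without endothelial replicate 2 to 1.16 without endothelial replicate 3.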

Other observations

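The transcript table gives the share of each listed transcript in its gene. Of 1897 genes with at least 5 FPKM in all 6 libraries, 1189 had 1 transcript with at least 60% of the FPKM in all endothelial libraries and 1 in all fibre libraries, and in 4 genes these were different transcripts. In Rtn4, the reticulon Nogo, a transcript of 4618 bases and 9 exons held 77.9%, 80.6% and 76.9% in endothelial replicates 1, 2 and 3 and 19.1%, 17.4% and 15.8% in fibres. One of 1773 bases and 7 exons held 71.9%, 76.4% and 78% in fibres. In Pdlim5, a PDZ and LIM protein of the Z disc, a transcript of 5016 bases and 13 exons held 73.8%, 76.8% and 80% in endothelial cells and one of 2010 bases and 9 exons held 91.2%, 86.8% and 89.1% in fibres. In Unc45b, the myosin chaperone of muscle, the transcript of 4152 bases and 20 exons held 92.9%, 97.2% and 88.6% in fibres, while one of 498 bases and 6 exons led in endothelial cells with 64.8%, 66.1% and 70.9%. In Mical2, an actin-oxidising enzyme, a transcript of 6669 bases and 20 exons held 87.3%, 80.1% and 87.7% in endothelial cells and one of 676 bases and 5 exons held 66.2%, 63.4% and 63.8% in fibres. These shares are the authors' estimates and were not tested.

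Ube2c, a ubiquitin-conjugating enzyme of mitosis, stood at 0.986, 0 and 1.32 FPKM in endothelial cells and at 736, 755 and 817 FPKM in fibres, although the cell cycle genes tested were higher in endothelial cells. It lies on chromosome 2, bases 164769929 to 164772902, next to Tnnc2 at bases 164777161 to 164779734, without overlap, and Tnnc2 stood at 2800 to 3024 FPKM in fibres. Whether transcripts of the 2 neighbours were joined in counting was not tested.

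Among all tested genes 44 had at least 10 FPKM in every endothelial library and were listed at 0 in every fibre library, and 50 had the reverse. A listed 0 can also be a failed estimate in a table without counts.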
